A study of Mus musculus with 6 samples.

Results

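A set of 9 interferon response genes was followed in mouse brain libraries with and without fibrinogen, a clotting protein of blood plasma that is cleaved to fibrin. These were the antiviral genes Ifit1, Ifit2, Ifit3 and Ifit3b, the transcription factor genes Stat2 and Irf9, and the interferon-induced genes Bst2, Ifi27 and Xaf1. Each was found by an exact match of its name in the gene column, which gave 9 of 9 members among 34250 rows. There were 3 fibrinogen libraries and 3 control libraries. All came from wild-type (WT) C57BL/6 mice and were labelled brain, cell type oligodendrocyte progenitor cell (OPC), the glial precursor of myelin-forming oligodendrocytes. The column names give the fibrinogen amount as 2.5 mg and number the libraries as mice. The study's methods describe OPC cultures from the cortex of newborn pups, in a medium with PDGF-AA, bFGF and hydrocortisone. These cultures received vehicle or fibrinogen, and the methods give the fibrinogen as a concentration, 2.5 mg/mL. The duration of treatment is not stated in the labels. They also do not say that libraries are separate cultures, and p-values here cover only the variation among the sequenced libraries, some of which may be technical. The question, by the labels, was which transcripts differ between fibrinogen-treated and control OPCs.

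Type I interferons bind the receptor chains Ifnar1 and Ifnar2 and activate the kinases Jak1 and Tyk2. The kinases phosphorylate Stat2, which joins Irf9 in the complex ISGF3, and this complex binds the interferon-stimulated response element (ISRE) in the promoters of its target genes. The Ifit genes are among the classical targets and encode tetratricopeptide repeat proteins that act on foreign RNA and on translation. Interferon-gamma works mainly through another element, the gamma-activated site (GAS).

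Promoter windows of the members are shown to describe their letters, and a link to the changes in level was not tested. Windows of 300 bases, starting 250 bases before the annotated start site, came from RefSeq (GRCm38.p6) and covered 8 of the 9 members. Ifi27 had none. An ISRE core was searched as TTTCNNTTTC on both strands, which reads GAAANNGAAA on the other strand. The GAS was searched as TTCNNNGAA, which reads the same on both strands. Capitals mark the ISRE core, and all sequences run 5′ to 3′ along the gene. The full windows are from Ifit3 (chr19:34583279-34583578, plus strand) and Ifit3b (chr19:34607707-34608006, plus strand).
Ifit3: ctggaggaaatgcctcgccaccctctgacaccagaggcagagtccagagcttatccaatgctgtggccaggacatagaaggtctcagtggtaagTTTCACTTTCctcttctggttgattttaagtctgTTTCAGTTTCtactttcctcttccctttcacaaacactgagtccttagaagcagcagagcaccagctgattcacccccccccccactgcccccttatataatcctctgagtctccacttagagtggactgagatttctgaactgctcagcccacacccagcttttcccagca
Ifit3b: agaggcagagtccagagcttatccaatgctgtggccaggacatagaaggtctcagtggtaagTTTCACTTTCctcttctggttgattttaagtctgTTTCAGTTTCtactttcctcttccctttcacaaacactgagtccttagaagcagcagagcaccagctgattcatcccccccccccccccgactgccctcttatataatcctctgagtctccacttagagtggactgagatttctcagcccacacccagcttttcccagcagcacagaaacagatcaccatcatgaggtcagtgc

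Both windows held 2 ISRE cores with the same letters and the same spacing. In the Ifit3 window the cores began 156 and 122 bases before the start site, and in the Ifit3b window 188 and 154 bases before it. Aligned to each other, the 2 windows matched at 258 of 260 aligned bases (99.2%, gaps left out). A pair of ISRE cores also lay in the window of Ifit1, beginning 104 and 85 bases before its start site. That pair is the same DNA as the pair in the window of the opposite-strand neighbour Ifit1bl2, an Ifit1-like gene, so the stretch is printed for each strand (chr19:34640770-34640828).
Ifit1, plus strand: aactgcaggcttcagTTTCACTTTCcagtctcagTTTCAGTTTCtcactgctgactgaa
Ifit1bl2, minus strand: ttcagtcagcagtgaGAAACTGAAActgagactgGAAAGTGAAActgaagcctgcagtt

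Stat2 held 1 ISRE core, beginning 222 bases before its start site (chr10:128270261-128270300, plus strand). Bst2 held 2 overlapping cores, beginning 130 and 124 bases before its start site (chr8:71537572-71537617, minus strand), together with a GAS that began at 136 bases and overlapped the first core.
Stat2: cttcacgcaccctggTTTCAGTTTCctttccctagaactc
Bst2: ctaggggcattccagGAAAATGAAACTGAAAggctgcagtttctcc

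No ISRE core in these letters was found in the windows of Ifit2, Irf9 and Xaf1, and a GAS began 241 bases before the first start site of Ifit2. At least 1 ISRE core occurred in 5 of the 10 member windows, against 3.44% of all 32851 windows and 36.2% of the 69 windows of the other interferon-stimulated genes listed below. At least 2 cores occurred in 4 member windows, among them the near-identical windows of Ifit3 and Ifit3b. The shares were 0.225% of all windows and 11.6% of those 69. A GAS occurred in 2 member windows, against 8.30% of all windows and 11.6% of those 69. A match describes letters and does not show a bound site.

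**Figure D1:**
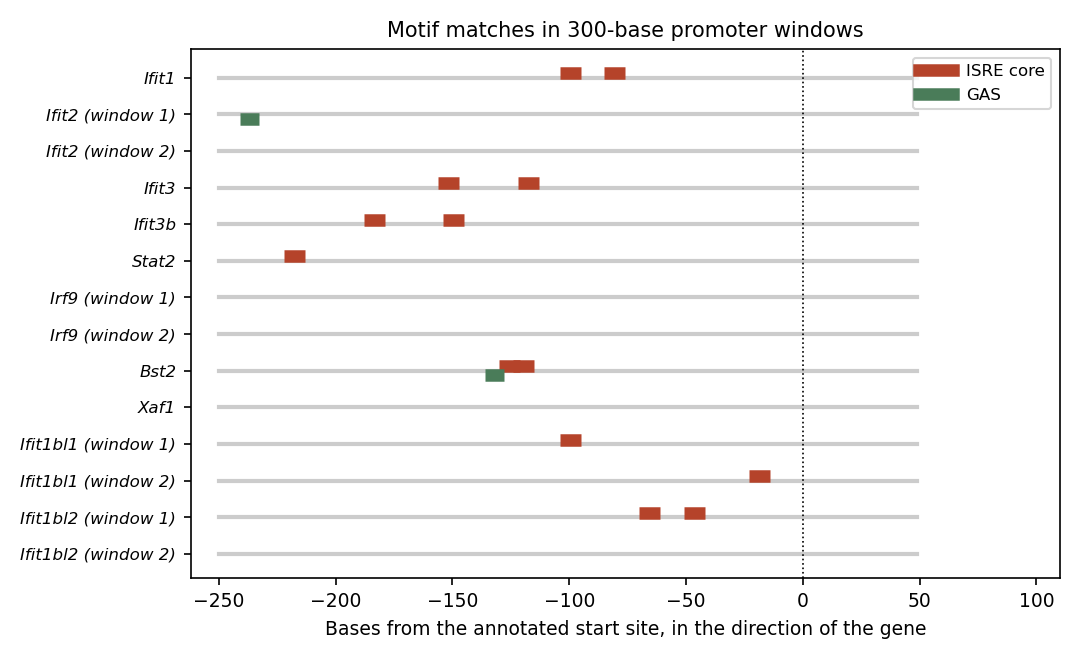
Each grey line is a 300-base promoter window of a member or of its neighbours Ifit1bl1 and Ifit1bl2, in bases from the annotated start site (dotted line), with ISRE cores in red and GAS matches in green. Ifit1, Ifit3, Ifit3b, Bst2 and the first window of Ifit1bl2 hold 2 cores each, and the windows of Ifit2, Irf9 and Xaf1 hold none.

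The libraries held 36670999 to 44448983 reads assigned to genes, and 14237 to 14839 genes per library reached 1 RPKM (the deposited unit, reads scaled to exon length and to the reads assigned in the library). The test was limma on log2(RPKM + 1) over the 14710 genes that reached 1 RPKM in 3 or more of the 6 libraries, with a threshold of 0.05 on the Benjamini-Hochberg adjusted p. Log2 changes are fibrinogen minus control and understate the change of low genes. In a principal component analysis the first component separated the groups, and the second, with 22.6% of the variance, set control replicate 3 apart. No marker of the 6 cell types listed was at 0 in all libraries. Neuron markers summed to 2666 to 3231 RPKM in fibrinogen libraries and 2713 to 2988 RPKM in controls, far above the OPC markers, at 120 to 130 RPKM and 90.5 to 98.4 RPKM. Neuron markers thus had the highest sum of the 6 lists in every library, although the label is OPC. Microglia markers summed to 123 to 138 RPKM in fibrinogen libraries and 162 to 187 RPKM in controls, and astrocyte markers to 462 to 501 RPKM and 538 to 633 RPKM. In such bulk RNA, fewer cells of a type and less RNA per cell cannot be told apart.

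Ifit3 and Ifit3b rose in fibrinogen libraries, and the levels of Ifit1 and Ifit2 were also higher in every fibrinogen library than in any control. The remaining members, Stat2, Irf9, Bst2, Ifi27 and Xaf1, had overlapping groups and did not pass. Of the 9 members 7 passed the filter on low values. Of these 7, 2 rose and 0 fell, where 5.87% of all tested genes rose, 5.62% fell and 11.5% passed in either direction. At an unadjusted limma p under 0.05 the counts were 3 and 0, and the share of all tested genes at that threshold was not taken. The groups did not overlap, with fibrinogen higher, for 3 of the 7, as for 17.4% of all tested genes. The median log2 change of the 7 was 0.16, beside -0.01 over all tested genes.

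**Figure D2:**
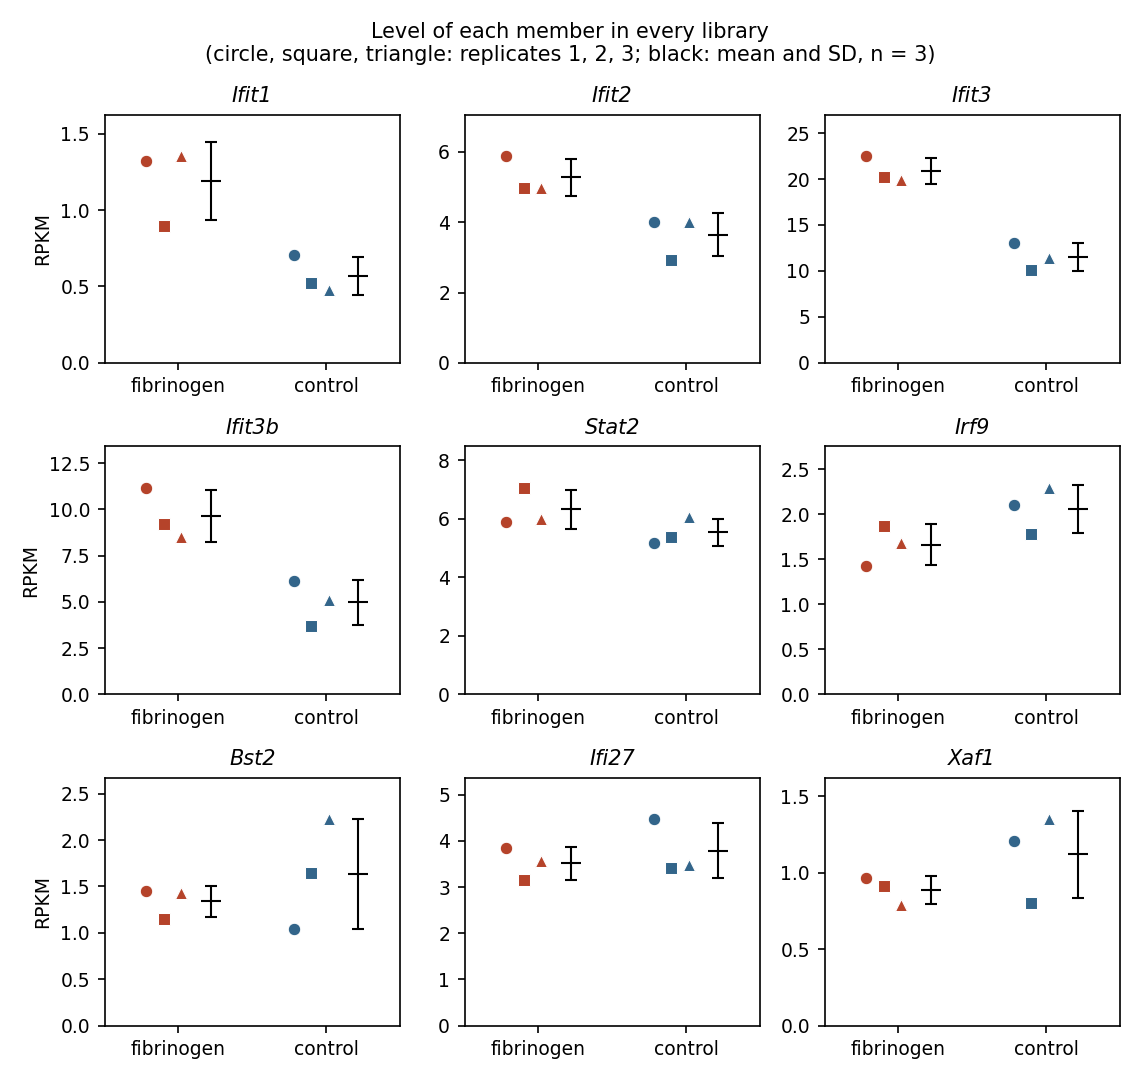
RPKM of each member in each library, with fibrinogen in red at the left and control in blue at the right of each panel (black: mean and SD, n = 3). All fibrinogen points lie above all control points for Ifit1, Ifit2, Ifit3 and Ifit3b, and the points of the groups overlap for the other members.

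Ifit3 was the most abundant member in both groups (chromosome 19, 34583531 to 34588731, GRCm38). It stood at 22.5, 20.2 and 19.9 RPKM in fibrinogen replicates 1 to 3, and at 13.1, 10.1 and 11.4 RPKM in control replicates 1 to 3. The lowest fibrinogen library was above the highest control. The means were 20.9 ± 1.42 RPKM with fibrinogen and 11.5 ± 1.52 RPKM in controls (SD, n = 3 each), a ratio of 1.81. The log2 change was 0.81 ± 0.11 (SE, 95% interval 0.56 to 1.06, limma adjusted p = 0.00731), on 685 to 1568 reads per library. It passed in 17 of 17 alternative fits, with limma adjusted p between 0.00331 and 0.0350. These include the fit in which Ifit3b was summed into the Ifit3 row. Without control replicate 3, the library that stood apart, the log2 change was 0.81 (limma adjusted p = 0.0122).

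Ifit3b, the neighbouring copy of Ifit3 (chromosome 19, 34607970 to 34613401), followed the same pattern at a lower level. Its fibrinogen libraries held 11.2, 9.22 and 8.50 RPKM and its control libraries 6.13, 3.70 and 5.10 RPKM. Here too the groups did not overlap. The means were 9.63 ± 1.39 RPKM with fibrinogen and 4.98 ± 1.22 RPKM in controls (SD, n = 3 each), and the log2 change was 0.84 ± 0.17 (SE, 95% interval 0.45 to 1.24, limma adjusted p = 0.0247). It passed in 12 of 16 alternatives and lost the call without fibrinogen replicate 1, 2 or 3 (limma adjusted p = 0.0840, 0.0580 and 0.0603) and without the filter (0.0658).

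Ifit3 and Ifit3b cannot be fully separated by short reads. In current mouse transcripts (GENCODE vM39), 31.5% of the 50-base stretches of Ifit3 also occurred in Ifit3b, and 47.8% of those of Ifit3b occurred in Ifit3. For stretches of 100 bases the shares were 16.7% and 27.2%. How the counting placed reads that map to both copies was not given in the sources used here, and each gene's own level is uncertain. Summed over both, reads per kilobase of their joint exon length came to 16.4, 14.3 and 13.8 RPKM in fibrinogen libraries and 9.37, 6.66 and 8.01 RPKM in controls. The sum rose, and its log2 change was 0.82 ± 0.13 (SE, limma adjusted p = 0.0115).

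Ifit2, which shared no 50-base stretch with other Ifit-named genes (chromosome 19, 34550694 to 34576419), was at 5.88, 4.97 and 4.98 RPKM in fibrinogen libraries. Its control libraries were at 3.995, 2.94 and 4.02 RPKM. No control reached the lowest fibrinogen library, yet the gene did not pass. The means were 5.28 ± 0.523 RPKM with fibrinogen and 3.65 ± 0.615 RPKM in controls (SD, n = 3 each), with a log2 change of 0.44 ± 0.12 (SE, 95% interval 0.15 to 0.72, limma adjusted p = 0.0616). It passed with library weights (limma adjusted p = 0.0374), with limma-voom on recovered reads (0.0443) and without control replicate 3 (0.0495), and in 0 of the other 13 alternatives. Over all genes, 4041 of 14710 passed with library weights and 2300 of 14710 without control replicate 3, against 1689 of 14710 with neither change. With limma-voom 2298 of 20113 passed.

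Ifit1, whose protein binds viral RNA that lacks host cap methylation (chromosome 19, 34640871 to 34650009), was the lowest of the Ifit members and lay below the filter. Its levels were 1.32, 0.898 and 1.35 RPKM in fibrinogen libraries, against 0.709, 0.521 and 0.476 RPKM in controls. All fibrinogen libraries were above all controls, on only 54 to 148 reads per library. The means were 1.19 ± 0.255 RPKM with fibrinogen and 0.568 ± 0.124 RPKM in controls (SD, n = 3 each), a ratio of 2.10. In the fit with no filter on low values, the log2 change of Ifit1 was 0.48 ± 0.13 (SE) at a limma adjusted p of 0.110. On whole reads recovered from the RPKM, limma-voom tested 20113 genes and gave a log2 change of 1.05 ± 0.27 (SE, 95% interval 0.44 to 1.66, limma adjusted p = 0.0380). With limma-voom 4 of the 9 members rose and 0 fell, the 4 Ifit genes, where 5.78% of all genes tested rose and 11.4% passed in either direction.

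**Figure D3:**
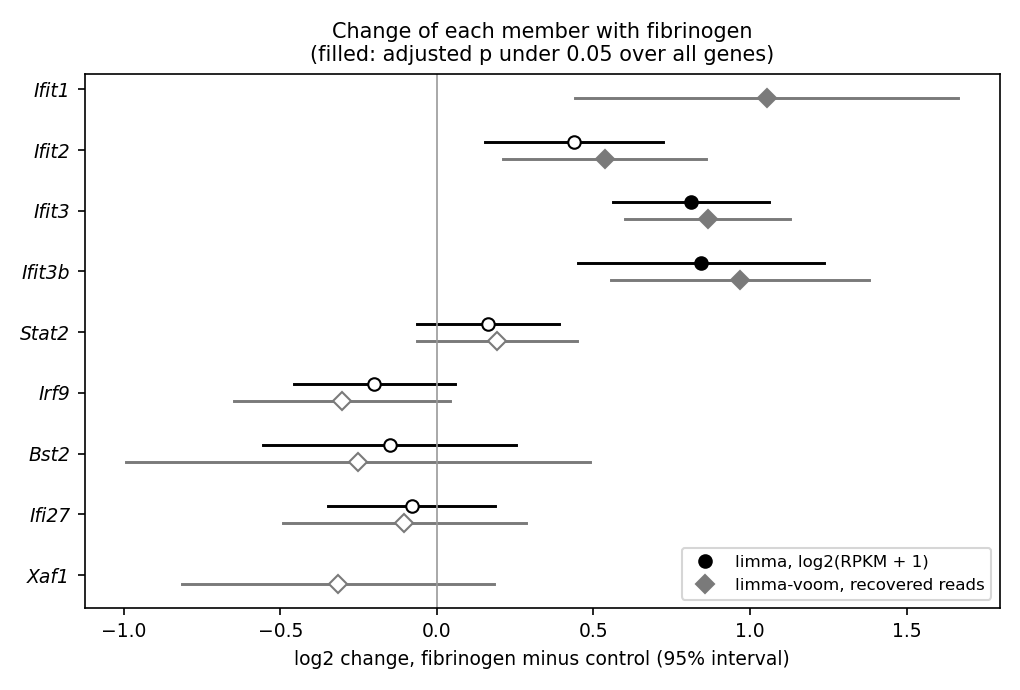
Log2 change of each member, fibrinogen minus control, with its 95% interval, from limma on log2(RPKM + 1) (circles) and from limma-voom on recovered reads (diamonds). Filled symbols passed at an adjusted p under 0.05. The intervals of the 4 Ifit genes lie above 0, and those of Stat2, Irf9, Bst2, Ifi27 and Xaf1 include 0.

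Stat2, which carries the activation domain of ISGF3 (chromosome 10, 128270576 to 128292849), was at 5.89, 7.07 and 6.01 RPKM in fibrinogen libraries and 5.16, 5.38 and 6.07 RPKM in controls. Control replicate 3 lay above 2 of the fibrinogen libraries. The log2 change was 0.16 ± 0.10 (SE, 95% interval -0.06 to 0.39, limma adjusted p = 0.309), and it passed in 0 of 17 alternatives.

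Irf9, the DNA-binding subunit of ISGF3 (chromosome 14, 55603571 to 55610030), was at 1.43, 1.88 and 1.69 RPKM in fibrinogen libraries. In controls it was at 2.10, 1.78 and 2.30 RPKM. The groups overlapped at fibrinogen replicate 2 and control replicate 2. Its log2 change was -0.20 ± 0.11 (SE, 95% interval -0.46 to 0.06, limma adjusted p = 0.272), passing in 0 of 16 alternatives. Its exons overlap those of Rnf31, an ubiquitin ligase gene on the same strand, so its level is uncertain, and Rnf31 averaged 2.33 RPKM with fibrinogen and 3.32 RPKM in controls (log2 change -0.38, limma adjusted p = 0.0753).

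Bst2, which encodes tetherin, a membrane protein that holds budding virions (chromosome 8, 71534255 to 71537456), had 1.45, 1.15 and 1.43 RPKM in fibrinogen libraries and 1.04, 1.64 and 2.23 RPKM in controls. The controls spanned the whole fibrinogen range, on 36 to 86 reads. The log2 change was -0.15 ± 0.17 (SE, 95% interval -0.55 to 0.25, limma adjusted p = 0.602), and its sign turned without control replicate 3 (0.01) and with library weights (0.09).

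Ifi27, an interferon-induced gene of the ISG12 family of small membrane proteins (chromosome 12, 103434211 to 103440239), had 3.85, 3.14 and 3.56 RPKM in fibrinogen libraries. Its controls had 4.47, 3.42 and 3.48 RPKM. The 2 groups overlapped, and the log2 change of -0.08 ± 0.11 (SE, 95% interval -0.35 to 0.19, limma adjusted p = 0.678) turned sign without control replicate 1 (0.02).

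Xaf1, a gene linked to apoptosis (chromosome 11, 72301629 to 72313733), was below the filter, at 0.965, 0.912 and 0.787 RPKM in fibrinogen libraries and 1.21, 0.803 and 1.35 RPKM in controls. The groups overlapped. In the fit with no filter on low values, the log2 change of Xaf1 was -0.16 at a limma adjusted p of 0.592. With limma-voom it was -0.32 ± 0.22 (SE, 95% interval -0.81 to 0.18, limma adjusted p = 0.394).

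Summed over members, the 4 Ifit genes came to 40.9, 35.3 and 34.7 RPKM in fibrinogen libraries and 23.9, 17.2 and 20.9 RPKM in controls. The other 5 members came to 13.6, 14.1 and 13.5 RPKM in fibrinogen libraries and 14.0, 13.0 and 15.4 RPKM in controls. The Ifit sums were apart, whereas the sums of the other members overlapped. The difference between these sets of members was not tested. In order of mean RPKM with fibrinogen, Ifit3 was followed by Ifit3b, Stat2, Ifit2, Ifi27, Irf9, Bst2, Ifit1 and Xaf1. In controls the order was Ifit3, Stat2, Ifit3b, Ifi27, Ifit2, Irf9, Bst2, Xaf1 and Ifit1. Neighbours in the fibrinogen order whose ranges overlapped were Irf9 and Bst2, Bst2 and Ifit1, and Ifit1 and Xaf1. In the control order they were Stat2 and Ifit3b, Ifit3b and Ifi27, Ifi27 and Ifit2, Irf9 and Bst2, and Bst2 and Xaf1.

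The Ifit genes lie next to each other, and so do their Ifit1-like relatives. From the start of Ifit2 to the end of Ifit1, a span of 99316 bases on chromosome 19, the table holds 6 rows. All 6 had higher levels in every fibrinogen library than in any control, as did 17.4% of all tested genes, with ratios of means from 1.45 for Ifit2 to 3.25 for Ifit1bl2. Of the 4 rows tested, Ifit3 and Ifit3b passed. Ifit1bl1 averaged 1.51 ± 0.0710 RPKM with fibrinogen and 0.986 ± 0.0738 RPKM in controls (SD, n = 3 each, log2 change 0.34, limma adjusted p = 0.0567). Ifit1bl2, on 13 to 85 reads per library, averaged 0.530 ± 0.0735 RPKM with fibrinogen and 0.163 ± 0.0782 RPKM in controls, below the filter. With limma-voom 5 of the 6 rows rose, where 5.78% of all genes tested did, among them Ifit1bl2 (log2 change 1.76, limma adjusted p = 0.0185). Ifit1bl1 did not (limma adjusted p = 0.0702). The next gene upstream, Lipa, which encodes lysosomal acid lipase, also rose, to 2.23 ± 0.135 RPKM with fibrinogen, against 1.37 ± 0.280 RPKM in controls (log2 change 0.45, limma adjusted p = 0.0467). The call for Lipa was lost with any library but control replicate 3 left out (limma adjusted p from 0.0897 to 0.131), without the filter (0.114), with a pseudocount of 0.1 (0.0541) and with the replicate block (0.0887). The flanking rows Gm26902 and Slc16a12 had overlapping groups. Ifit1bl2 shared 5.29% of its 50-base stretches with Ifit1, and its reads are likewise uncertain.

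**Figure D4:**
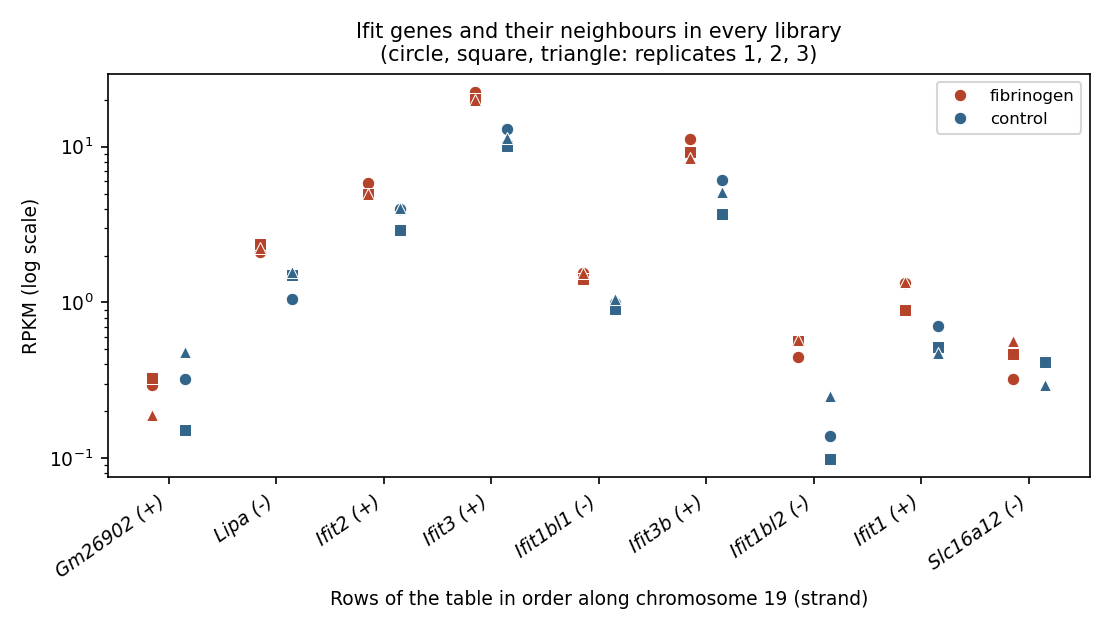
RPKM on a log scale in each library for the rows along chromosome 19 around the Ifit genes, with fibrinogen in red left of control in blue. The groups are apart for the 6 Ifit rows and for Lipa, and overlap for Gm26902 and Slc16a12.

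Across the 6 libraries, the genes whose log2(RPKM + 1) was most like that of Ifit3 by Pearson correlation were Zc3h7b (0.996), Gm5141 (0.993), S1pr1 (0.993), RP23-291B1.2 (0.992) and Mrpl48-ps (0.991), none of them in the interferon lists used here. Among the members tested, the correlation with Ifit3 was 0.98 for Ifit3b, 0.94 for Ifit2, 0.56 for Stat2, -0.09 for Ifi27, -0.45 for Bst2 and -0.66 for Irf9. Of 14703 other tested genes 209 reached 0.95. The 6 points share the grouping, so this is a description of likeness only.

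The interferon genes themselves were barely detected. Of the 7 interferon ligand genes with a row, 4 had no reads in any library, 0 passed the filter, and the highest mean was 0.0113 RPKM. Of 8 receptor and Janus kinase genes tested 1 rose and 0 fell, where 5.87% of all tested genes rose and 5.62% fell. Ifngr2, the signalling chain of the interferon-gamma receptor, averaged 6.03 ± 1.002 RPKM with fibrinogen and 3.44 ± 0.0932 RPKM in controls (SD, n = 3 each, log2 change 0.65 ± 0.11, SE, limma adjusted p = 0.0151), and it lost the call without control replicate 1 (0.0574) or 2 (0.0512). The type I receptor chains Ifnar1 (3.81 ± 0.381 RPKM with fibrinogen and 3.87 ± 0.489 RPKM in controls) and Ifnar2 (4.24 ± 0.112 RPKM and 4.55 ± 0.207 RPKM) did not pass. Jak1, the most abundant kinase of the list, had a log2 change of 0.11 (95% interval -0.07 to 0.29, limma adjusted p = 0.389), and Jak2, used by the interferon-gamma receptor, had one of -0.21 (limma adjusted p = 0.139).

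Of the 8 other Stat and Irf genes tested 0 passed limma's adjusted threshold. At an unadjusted limma p under 0.05, 1 was higher and 2 lower, with the share of all genes not taken. Limma-voom called 0 higher and 1 lower of 14, where 11.4% of all genes tested passed in either direction. The most abundant genes of this list, Irf2 (log2 change -0.25, limma adjusted p = 0.112) and Irf5 (-0.19, limma adjusted p = 0.191), did not pass.

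The other interferon-stimulated genes held calls in both directions. Of the 69 with a row, 25 were tested, 1 rose, 5 fell and 19 did not pass, where 5.87% of all tested genes rose and 5.62% fell, and their median log2 change was -0.04. Limma-voom called 3 higher and 4 lower of 60, and without the filter on low values 1 was higher and 1 lower of 68. This list includes Ifit1bl1 and Ifit1bl2, already counted among the Ifit rows of chromosome 19. Ifit1bl2 was among the 3 higher with limma-voom and was the 1 higher without the filter. Nmi, an interferon-induced binding partner of Stat proteins, rose to 3.92 ± 0.290 RPKM with fibrinogen, against 2.67 ± 0.0766 RPKM in controls (SD, n = 3 each, log2 change 0.42, limma adjusted p = 0.0227). Slfn2, a Schlafen family gene of immune cells, fell to 1.25 ± 0.228 RPKM with fibrinogen, against 4.21 ± 1.95 RPKM in controls (log2 change -1.15, limma adjusted p = 0.0299). Lgals3bp, a secreted galectin-binding glycoprotein gene, fell to 1.44 ± 0.107 RPKM, against 2.92 ± 0.525 RPKM in controls (log2 change -0.68, limma adjusted p = 0.0163). Eif2ak2, the RNA-activated kinase PKR, fell to 3.90 ± 0.0868 RPKM, against 5.27 ± 0.356 RPKM in controls (log2 change -0.36, limma adjusted p = 0.0318). Ifi27l2a, a relative of Ifi27 (log2 change -0.64, limma adjusted p = 0.0278), and Ifitm2, a membrane restriction factor (-0.84, limma adjusted p = 0.0424), also fell. Ifi27l2a and Ifitm2 rested on as few as 8 and 17 reads in a library, and the mean of Ifi27l2a with fibrinogen, at 0.557 RPKM, was below the filter, which it passed through the controls. The 6 calls passed in 8 of 16 alternatives for Ifitm2, 9 for Nmi, Ifi27l2a and Eif2ak2, 10 for Slfn2 and 13 for Lgals3bp. Without fibrinogen replicate 1 or 3, 0 of the 25 genes passed, and without fibrinogen replicate 2, control replicate 1 and control replicate 2 the counts were 2, 1 and 2.

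The summed microglia markers were lower in every fibrinogen library than in any control. The most abundant of them, Ctss, averaged 37.2 RPKM with fibrinogen and 74.8 RPKM in controls, and the sum was not taken without it. The median log2 change of the tested microglia markers was -0.07. Of 16 tested microglia markers 5 fell and 2 rose, where 5.62% of all tested genes fell and 5.87% rose. The groups were apart with fibrinogen lower for 5 of the 16 and higher for 6. Of all tested genes 17.4% were apart with fibrinogen higher, and the share apart with fibrinogen lower was not taken. The part of microglia content in the interferon-stimulated genes was not tested. The most abundant of these genes, the RNA editing enzyme gene Adar, did not pass (17.5 ± 0.822 RPKM with fibrinogen and 17.7 ± 0.755 RPKM in controls, log2 change -0.02, 95% interval -0.19 to 0.15, limma adjusted p = 0.890), nor did Pnpt1, a mitochondrial RNA exonuclease gene (log2 change -0.28, limma adjusted p = 0.195). Isg15, a ubiquitin-like modifier, was at 1.12, 1.43 and 2.18 RPKM in fibrinogen libraries and 1.003, 0.610 and 2.32 RPKM in controls. These overlapped widely (log2 change 0.20, 95% interval -0.45 to 0.86, limma adjusted p = 0.668). Mx1, Oas2, Rsad2 and Usp18, antiviral or feedback genes of the same response, were among the 44 genes below the filter, with no mean over 0.29 RPKM in either group.

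**Figure D5:**
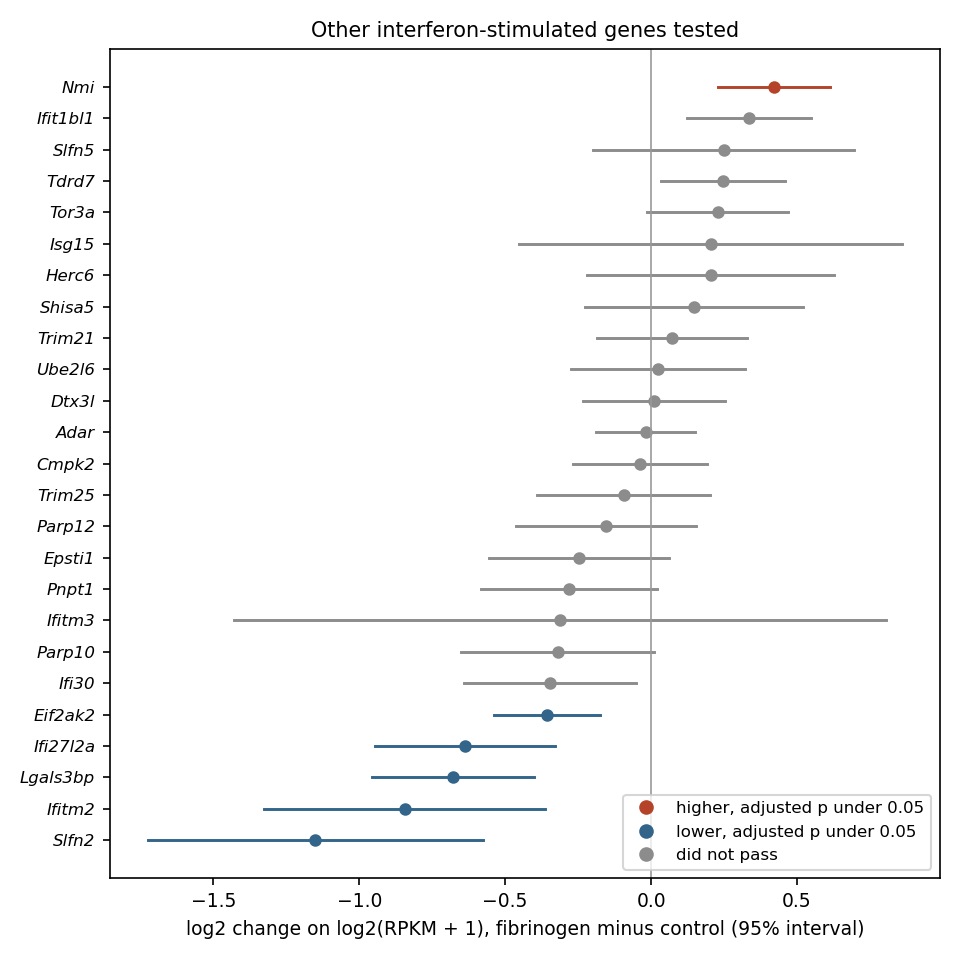
Log2 change on log2(RPKM + 1), fibrinogen minus control, with its 95% interval, for the 25 other interferon-stimulated genes tested, in red where a gene rose, blue where it fell and grey where it did not pass. Nmi is red and 5 are blue, from Eif2ak2 at -0.36 to Slfn2 at -1.15.

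Interferon-gamma targets included 1 that rose and 0 that fell of 8 tested, where 5.87% of all tested genes rose and 5.62% fell. Their median log2 change was 0.40. Gbp4, a guanylate-binding GTPase gene, rose to 1.07 ± 0.0420 RPKM with fibrinogen, against 0.449 ± 0.0465 RPKM in controls (SD, n = 3 each, log2 change 0.51, limma adjusted p = 0.0204), and it passed the filter through the fibrinogen libraries alone. Its call was lost with any library but control replicate 3 left out (limma adjusted p from 0.0573 to 0.0808) and with the replicate block (0.0794). Gbp3 and Gbp2, the most abundant of this list, did not pass (log2 change 0.71, limma adjusted p = 0.0698, and 0.45, limma adjusted p = 0.415). With limma-voom 5 of 17 rose and 0 fell, where 5.78% of all genes tested rose and 11.4% passed in either direction.

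Sensors of nucleic acids and their adaptors had 0 limma calls among 10 tested genes. At an unadjusted limma p under 0.05, 2 were higher and 2 lower, with the share of all genes again not taken. Limma-voom made 3 calls among 22, where 11.4% of all genes tested passed in either direction. The most abundant did not pass, the kinase gene Tbk1 (log2 change -0.28, limma adjusted p = 0.0764) and Rnaseh2c, an RNase subunit gene (0.29, limma adjusted p = 0.0692). Of 13 negative regulators of interferon signalling tested, 0 were higher and 9 lower at an unadjusted limma p under 0.05. The share of all genes at that threshold was not taken, so this count has no background to be read against. At the adjusted threshold 0 rose and 2 fell, where 5.87% of all tested genes rose and 5.62% fell. These were Pias2, a SUMO ligase gene of the family that inhibits Stat proteins, with 4.30 ± 0.121 RPKM in fibrinogen libraries and 5.71 ± 0.449 RPKM in controls (log2 change -0.34, limma adjusted p = 0.0399), and Ptpn11, a phosphatase gene, at 28.8 ± 0.969 RPKM and 37.8 ± 3.70 RPKM (log2 change -0.38, limma adjusted p = 0.0394). Both calls were lost with any library but control replicate 3 left out (limma adjusted p from 0.0832 to 0.137), without the filter, with the replicate block, and with median-of-ratios scaling (0.0521 for Pias2 and 0.0595 for Ptpn11). Over the pathway lists other than the interferon-stimulated genes, 2 genes rose and 2 fell of 45 tested, against 3 and 0 with median-of-ratios scaling. Irf2bp1, an abundant corepressor gene of this list, had a log2 change of -0.03 (limma adjusted p = 0.895). The median of this list was -0.24, beside -0.01 over all tested genes.

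The marker sums that moved with the groups are set beside the Ifit levels. OPC marker sums were higher in every fibrinogen library than in any control, and so were the Ifit sums. Of 14 tested OPC markers 7 rose and 0 fell, where 5.87% of all tested genes rose and 5.62% fell. The mature oligodendrocyte sums overlapped, at 221 to 358 RPKM with fibrinogen and 189 to 305 RPKM in controls, as did the endothelial sums, at 34.6 to 41.6 RPKM and 38.0 to 50.8 RPKM. Of 16 tested microglia markers, 6 were higher in every fibrinogen library than in any control and 5 were lower. The share of all tested genes was 17.4% for higher and was not taken for lower. The most abundant, Ctss, averaged 37.2 RPKM with fibrinogen and 74.8 RPKM in controls. Microglia sums, which were not taken without Ctss, were lower in every fibrinogen library than in any control. The astrocyte sums were too, but this rested on Gfap, an intermediate filament gene, at 42.6, 32.3 and 42.4 RPKM in fibrinogen libraries and 75.7, 82.5 and 221.9 RPKM in controls. Without Gfap, a sum taken after seeing the data, they overlapped, at 420.1 to 459 RPKM with fibrinogen and 411 to 464 RPKM in controls. Of the 12 astrocyte markers 1 rose and 4 fell, and the one that rose was the water channel gene Aqp4 (log2 change 0.66, limma adjusted p = 0.0116). The part of cell type content in the levels of the Ifit genes was not tested. Of the most abundant marker genes, Cspg5, a proteoglycan gene among the OPC markers, rose (log2 change 0.59, limma adjusted p = 0.0124), and Ctss, a lysosomal protease gene of microglia, fell (-0.98, limma adjusted p = 0.00454), as did Aldoc, an astrocyte aldolase gene (-0.45, limma adjusted p = 0.0292). Snap25 and Camk2a, neuronal genes, averaged 580.6 RPKM and 461 RPKM with fibrinogen and 644.0 RPKM and 556 RPKM in controls and did not pass. The abundant markers Bcan of OPCs, Mobp of oligodendrocytes, Slc1a2 of astrocytes and Cldn5 and Flt1 of endothelium, did not pass either, with limma adjusted p from 0.375 to 0.821.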

How the data were processed

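The authors prepared stranded mRNA libraries. The submitters' processing notes name STAR 2.7.6a, featureCounts 1.5.1, edgeR 3.12.1 and Trimmomatic 0.39. The deposited values are RPKM, with the exon length of each gene as the deposited length. Of the gene symbols shared with the table, 49.8% had ends within 10 bases on GRCm38.p6 and 1.85% on GRCm39, so coordinates are GRCm38. RPKM times length, divided by its smallest value above 0 in each library, gave whole reads for 100% of values within 0.001 reads. The strand setting and the handling of multi-mapped reads were not given in the sources used here.

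Groups were taken from the sample titles. Limma 3.58.1 (R 4.3.3, trended prior) tested log2(RPKM + 1) over all genes with at least 1 RPKM in 3 of 6 libraries, two-sided. Limma-voom used recovered reads of genes with at least 10 reads in at least 3 libraries. The fits were also run on simulated reads with known changes. Every gene had the same dispersion there, so that run does not represent the spread among these libraries. Each pair of libraries differed by at least 10.5 in chi-square per degree of freedom. That lowest value was for control replicates 1 and 2, and all other pairs lay between 27.2 and 97.5. Control replicate 3 differed from control replicates 1 and 2 by 43.5 and 58.4. An exact permutation test of 3 against 3 cannot go below 0.1.

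The members and lists were chosen with earlier results of these data known. Text names all 9 members, every called gene and the 2 most abundant tested genes of each pathway list, the 2 most abundant genes of each marker list and the 5 genes most like Ifit3, apart from a few genes not reported here. Ifnar1, Ifnar2, Isg15, Mx1, Oas2, Rsad2 and Usp18 and the rows beside the Ifit genes were named after their values were seen. Promoter windows came from RefSeq, transcripts from GENCODE. Alternatives changed the pseudocount, filter, scaling, prior variance and library weights, or used a replicate block, limma-voom, summed Ifit3 and Ifit3b, and leaving out each library.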

Additional observations from a re-analysis of the deposited data

How the results depend on the processing

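Of the 9 members, 2 passed as reported. The count was 1 without the filter on low values, 4 with limma-voom on recovered reads, and 1 to 3 when each library was left out. With Ifit3 and Ifit3b merged into 1 row the count was 1, which was the merged row (limma adjusted p = 0.0115). Leaving out any fibrinogen library gave 1, which was Ifit3. Other interferon-stimulated genes called numbered 6, against 2 without the filter, 0 at a mean of at least 5 RPKM (4 genes tested), and 0 to 5 with a library left out. Genes called in the other pathway lists numbered 4 of 45 tested, against 2 of 14 at a mean of at least 5 RPKM. They numbered 19 of 45 with library weights, 13 of 73 with limma-voom and 0 to 11 with a library left out. Among all genes, library weights called 4041 of 14710 and limma-voom 2298 of 20113. The labels number the replicates but do not say whether same-numbered libraries were paired. The deviations of same-numbered libraries correlated at 0.06, -0.24 and -0.07, which cannot settle pairing with 3 libraries per group. With a replicate block 2 members passed, 1 other interferon-stimulated gene and 1 gene of the other pathway lists. Over all genes the calls were 1689, against 935 without the filter, 1052 at a mean of at least 5 RPKM, 4041 with library weights, 600 with the replicate block and 466 to 2300 with a library left out. The log2 change of Bst2 was 0.0879 with library weights and ran from -0.3228 to 0.0074 with a library left out, and that of Ifi27 ran from -0.1352 to 0.0189. The cause was not tested. Scaling moved the median of all genes by under 0.1. Depth limits Ifit1 (54 to 148 reads) and Bst2 (36 to 86 reads), while Ifit3 had at least 685 reads.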
